A study of Mus musculus with 23 samples.

Results

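The genes of protein folding and secretion in the endoplasmic reticulum (ER) were followed in RNA-Seq of mouse lung, as a list of 54 members taken by gene symbol from a table of 35322 genes. Each of the 54 symbols was found once, and all 54 passed the filter on low values, which kept 16795 genes with at least 0.5 RPM (reads scaled to the library total) in at least 4 of 23 libraries. The members were named by function, without a threshold on measured values, but with earlier results of these data known.

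BALB/c offspring, described as female, were studied at 13 weeks in 4 groups, with 7 Sham, 7 PM, 5 Sham-OVA and 4 PM-OVA libraries. Dams were given saline (Sham) or fine roadside particles (PM2.5; PM) intranasally before mating, through gestation and until weaning, and the offspring themselves were not dosed with particles. The OVA groups were sensitised to ovalbumin with alum and then challenged with nebulised ovalbumin to induce allergic airway disease (AAD). The other groups received a control challenge, named as saline in the methods and as PBS in the labels. The methods describe sensitisation for each offspring, so whether the control groups were also sensitised is not clear from them. The lungs of all groups were taken after lung function testing with methacholine and lavage of the airways, and the lobe is given as RML in the labels and as the right lower lobe in the methods. Replicates are numbered here as in the sample titles, and the library names number the OVA libraries otherwise (Sham-OVA replicate 3 is library 4 of its group by name, for example). The labels number the replicates without saying which shared a litter, and p-values measure only the spread between these libraries.

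The ER folds proteins that are to be secreted or placed in membranes. Nascent chains enter through the Sec61 channel, lose their signal peptide, receive sugars from the oligosaccharyltransferase, and fold with the help of chaperones and disulfide isomerases, while chains that fail to fold are exported for degradation (ERAD) and folded cargo leaves in COPII vesicles. When the load exceeds the capacity, the sensors IRE1 (Ern1), PERK (Eif2ak3) and ATF6 start the unfolded protein response, and in the lung this machinery is most developed in secretory cells such as plasma cells, goblet cells and alveolar type 2 cells.

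Reads on genes ranged from 13827228 to 16671489 for Sham, from 13089691 to 17393579 for PM, from 2298645 to 12185451 for Sham-OVA and from 4324326 to 12355561 for PM-OVA. The shallowest libraries were replicate 3 of Sham-OVA with replicates 3 and 4 of PM-OVA, and their level of all genes also stood apart, with medians of 2.93, 3.37 and 3.29 on the log2(RPM + 0.5) scale against 3.71 to 4.21 in the other 20 libraries. In 1 of the 23 libraries, Sham replicate 1, Xist was listed below 1 RPM and the Y-linked gene Eif2s3y at 54.04 RPM, with Eif2s3y at 0 in the other 22, so that this library went against the description as female, and without it the calls after OVA in Sham offspring stayed at 31 higher and 7 lower members. The lung label was checked with Sftpc, which encodes the surfactant protein of alveolar type 2 cells and lay between 6489.6 and 31953 RPM in the 23 libraries.

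The promoters of 43 of the 54 members were matched in RefSeq (GRCm38.p6), each from 250 bases before to 50 bases after the gene start, and were searched on both strands for the elements through which the unfolded protein response is known to act. The ER stress response element, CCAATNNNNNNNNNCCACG, was present in 8 of the 43 members (18.6%) and in 37 of all 27025 genes with a promoter (0.137%). The sequences of 7 of these promoters are shown because the genes that carry the same element include members that rose, members that fell and members that did not pass the test after OVA. Each is written 5′ to 3′ on the strand of the gene, with the element in capitals, as the forward or the reverse complement form.
Pdia6: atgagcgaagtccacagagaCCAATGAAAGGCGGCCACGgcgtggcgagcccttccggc
Syvn1: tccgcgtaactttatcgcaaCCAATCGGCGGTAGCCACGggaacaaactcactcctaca
Creld2: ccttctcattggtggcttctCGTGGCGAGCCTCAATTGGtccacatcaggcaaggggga
Calr: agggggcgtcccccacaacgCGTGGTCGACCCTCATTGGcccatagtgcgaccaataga
Hsp90b1: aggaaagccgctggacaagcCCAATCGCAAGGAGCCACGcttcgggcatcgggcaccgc
Canx: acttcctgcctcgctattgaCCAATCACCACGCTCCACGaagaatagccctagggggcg
Dnajc3: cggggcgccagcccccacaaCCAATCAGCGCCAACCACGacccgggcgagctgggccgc

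In the same order, these windows lie at chr12:17266471-17266529 (plus strand), chr19:6046512-6046570 (plus strand), chr15:88819500-88819558 (plus strand), chr8:84847055-84847113 (minus strand), chr10:86705618-86705676 (minus strand), chr11:50325780-50325838 (minus strand) and chr14:118937807-118937865 (plus strand). The element began 98 bases before the start of Pdia6, 44 before Syvn1, 126 before Creld2, 162 before Calr, 212 before Hsp90b1, 145 before Canx and 105 before Dnajc3. Hsp90b1 held it a second time, and Hspa5 was the eighth member with it. The second form of the element, ATTGG and CCACG with 1 free base between, was found in Dnajb11 and Herpud1 among the members and in 12 of all 27025 genes (0.0444%). In Herpud1 the element began 52 bases before the gene start, in a window at chr8:94386357-94386407 (plus strand).
Herpud1: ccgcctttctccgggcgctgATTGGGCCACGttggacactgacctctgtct

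The unfolded protein response element, TGACGTGG, was found in 4 members (Kdelr3, Sec24d, Txndc11 and Txndc5; 9.3%) and in 193 of all genes (0.714%). The C/EBP-ATF response element, TGATGNAAN, was found in 3 members (Herpud1, Trib3 and Txndc5; 6.98%) and in 1215 of all genes (4.5%). A match says only that these letters are in the window.

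Before any challenge, the members differed widely in level. Per kb of exon, the highest in Sham were P4hb, a protein disulfide isomerase, with 192 RPM per kb, Hspa5, the major ER chaperone BiP, with 176 RPM per kb, and Pdia3, the isomerase that works with calnexin, with 129.9 RPM per kb. The lowest as listed was Sec61b, a small subunit of the Sec61 channel, with 0.318 RPM per kb. Next came Fkbp11, a prolyl isomerase, with 1.59 RPM per kb, and Spcs1, a subunit of the signal peptidase, with 3.75 RPM per kb. Sec61b had 0 to 12 reads per library, and whether reads of genes listed this low were lost in mapping or counting was not tested. Some genes of the lists compared below were also listed near 0, among them Hspd1 and Srp54a. The spread between libraries, as the coefficient of variation, had a median over 53 members (Sec61b was left out for its low level) of 14.2% for Sham, 12.85% for PM, 24.9% for Sham-OVA and 31.0% for PM-OVA.

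The first comparison asked how the allergic challenge changed these genes in offspring of saline-exposed dams. In Sham-OVA against Sham, 31 of the 54 members rose, 7 fell and 16 did not pass the test (limma on log2(RPM + 0.5), adjusted p under 0.05), whereas over all genes tested 20.6% rose and 47.5% fell. The median log2 fold change was 0.62 over the members and −0.48 over all genes. The largest rises were those of Fkbp11, Manf, Sdf2l1 and Edem1, with log2 fold changes of 3.44, 3.36, 3.13 and 3.02. Every Sham-OVA library lay above every Sham library for 26 members (13.2% of all genes) and below every Sham library for 4 members (35% of all genes).

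Rises of over 2-fold that passed the test were seen for 22 members and falls of over 2-fold for none of the 54. In PM-OVA against PM these counts were 17 and 2. The share of all genes at that size was not counted, so these counts have no background. The study defined differentially expressed genes (DEGs) with DESeq2, by a limit of 0.000001 on the adjusted p and of 1 on the size of the log2 fold change. With DESeq2 on reads recovered from the values, 25 members were higher at these limits and none lower, against 14% and 15% of all genes. With limma at the same limits, 10 members were higher, Pdia6, Sdf2l1, Manf, Edem1, Edem2, Syvn1, Sec11c, Ssr2, Fkbp2 and Fkbp11, against 1.98% of all genes. With the 3 shallowest libraries left out, 38 members rose and 7 fell. Over all 16795 genes 4221 rose and 7925 fell in that fit, against 3453 and 7978 in the main fit. With libraries rescaled by median-of-ratios or TMM factors, which moved the median of all genes from −0.48 to −0.17 and −0.09, 39 members rose and 1 fell. Over all genes 4903 and 5293 then rose, and 6407 and 5906 fell.

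The same comparison was made in offspring of PM2.5-exposed dams. In PM-OVA against PM, 27 of the 54 members rose, 9 fell and 18 did not pass the test, whereas over all genes 20.1% rose and 45.2% fell. The median log2 fold change was 0.37 over the members and −0.43 over all genes. All 27 of these members also rose in Sham offspring, and all 7 members that fell in Sham offspring also fell here. Every PM-OVA library lay above every PM library for 22 members (13.3% of all genes) and below every PM library for 2 members, Dnajc3 and Edem3 (28.6% of all genes).

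At the limits for DEGs, 20 members were higher in PM-OVA against PM with DESeq2 and none lower, against 10.5% and 6.46% of all genes. With limma at these limits no member passed, where 0.262% of all genes were higher. An unadjusted limma p under 0.05 was seen for 38 members, against 68.8% of all genes. Without the 3 shallowest libraries, which left 2 PM-OVA libraries, 27 members rose and 3 fell. Over all genes 3311 rose and 5258 fell in that fit, against 3379 and 7589 in the main fit. With median-of-ratios and TMM factors, 32 and 35 members rose and 8 and 5 fell, and the median of all genes moved to −0.13 and −0.04. Over all genes 4862 and 5345 then rose, and 6003 and 5498 fell. All 31 members that rose in Sham offspring and all 27 in PM offspring were also called higher under both of these scalings. Of the 7 that fell in Sham offspring only Dnajc3 was still called lower. Of the 9 that fell in PM offspring 5 were, Dnajc3, Ssr3, Atf6, Ern1 and Mcfd2. How many of all genes kept their calls under both was not counted, so these counts have no background.

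**Figure D1:**
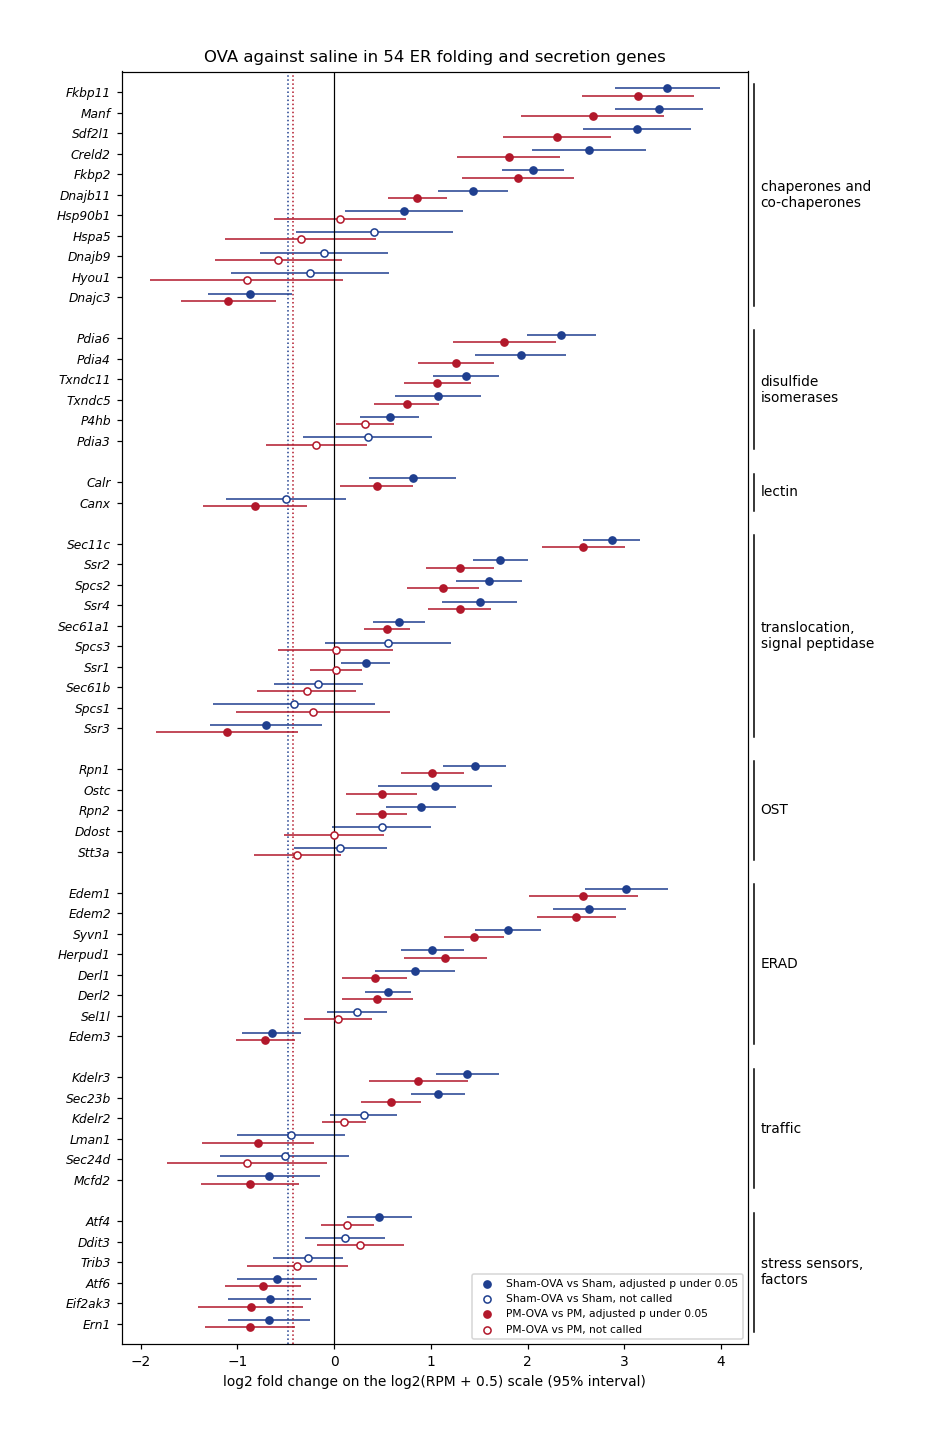
Log2 fold change on the log2(RPM + 0.5) scale (horizontal axis) of each of the 54 members (vertical axis, grouped by role) in Sham-OVA against Sham (blue) and PM-OVA against PM (red), with 95% intervals. Filled points passed an adjusted p of 0.05, and dotted lines mark the median of all genes tested at −0.48 and −0.43. The rises extend to 3.44 for Fkbp11, whereas Dnajc3 is the lowest filled blue point at −0.87.

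Among the 11 chaperones and co-chaperones, 7 rose and 1 fell in Sham-OVA, and 6 rose and 1 fell in PM-OVA. Fkbp11 (ENSMUSG00000003355.7, chr15:98724366-98728198, minus strand) had a lowest, median and highest level of 2.28, 4.17 and 7.81 RPM in Sham, and of 47.1, 53.3, 44.7, 45.7 and 49.7 RPM in the Sham-OVA libraries. In PM it lay between 2.3 and 5.93 RPM with a median of 3.48 RPM, and the PM-OVA libraries had 24.1, 28.3, 42.2 and 58.6 RPM. All OVA libraries were thus above all saline libraries in both cohorts, and the rise was 10.9-fold in Sham offspring (log2 3.44, SE 0.25, limma adjusted p = 7.63e-08) and 8.81-fold in PM offspring (log2 3.14, SE 0.27, limma adjusted p = 4.77e-06).

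Hspa5 (ENSMUSG00000026864.13, chr2:34771970-34777547, plus strand), a chaperone often measured as a marker of ER stress, did not pass the test in either cohort. It had 389, 712 and 1129 RPM as the lowest, median and highest level in Sham, and 1352, 1573, 292, 1298 and 877 RPM in the Sham-OVA libraries. In PM the corresponding levels were 542, 776 and 1389 RPM, and the PM-OVA libraries had 1435, 771, 328 and 538 RPM. Sham-OVA replicates 1, 2 and 4 were above all Sham libraries while replicate 3, a shallow library, was below all of them, and the PM-OVA libraries lay on both sides of the PM range.

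The log2 fold change of Hspa5 was 0.42 (SE 0.38, limma adjusted p = 0.345) in Sham offspring and −0.35 (SE 0.36, limma adjusted p = 0.409) in PM offspring. Without Sham-OVA replicate 3, Hspa5 was called higher in Sham offspring at 0.83 (limma adjusted p = 0.0081), as it was with median-of-ratios scaling, TMM scaling, array weights, DESeq2 and edgeR (0.53 to 0.92). In PM offspring it was called under none of the settings, and its sign turned to positive with median-of-ratios scaling (0.02) and TMM (0.12). Hsp90b1 (ENSMUSG00000020048.13, chr10:86690209-86705509, minus strand), the ER member of the HSP90 family, had 281, 463 and 551 RPM in Sham as the lowest, median and highest level, and 949, 1016, 298, 947 and 619 RPM in Sham-OVA.

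Hsp90b1 was higher in 4 of 5 Sham-OVA libraries than in every Sham library, and the rise of 0.72 on the log2 scale (SE 0.29, limma adjusted p = 0.036) was lost without filtering and when any of 5 single libraries was left out (Sham replicates 3 and 7, Sham-OVA replicates 1, 2 and 4). In PM it had 363, 509 and 628 RPM, and the PM-OVA libraries had 1167, 508, 258 and 436 RPM, with a log2 fold change of 0.06 (SE 0.32, limma adjusted p = 0.871).

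Several co-factors of the chaperones rose as well. Manf, a protein released from cells under ER stress, went from 106 ± 29.1 RPM (SD, n = 7) in Sham to 1088 ± 295 RPM (SD, n = 5) in Sham-OVA, and from 124 ± 47.3 RPM (SD, n = 7) in PM to 839 ± 439 RPM (SD, n = 4) in PM-OVA. Sdf2l1, which works with BiP and its J-domain partner, went from 21.5 ± 8.36 to 183 ± 41.4 RPM and from 26.6 ± 10.7 to 126 ± 12.5 RPM. Creld2, another ER stress-inducible protein, rose by 2.63 and 1.80 on the log2 scale, Fkbp2, a prolyl isomerase, by 2.06 and 1.90, and Dnajb11, the J-domain partner of BiP, by 1.43 and 0.86. Manf shares 146 exonic bases with Dcaf1 and 166 with an antisense gene on the opposite strand, and whether the authors' counts used strand is not given in the sources used here.

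Not all BiP partners moved in this way. Dnajc3 (ENSMUSG00000022136.8, chr14:118937976-118981697, plus strand), an ER co-chaperone known for its link to PERK, fell in both cohorts. It had 176, 281 and 337 RPM as the lowest, median and highest level in Sham and 173, 173, 91, 166 and 149 RPM in Sham-OVA, and 249, 299 and 380.1 RPM in PM and 242, 163, 100.1 and 109 RPM in PM-OVA. The OVA libraries were below all saline libraries of the same cohort, with log2 fold changes of −0.87 (SE 0.20, limma adjusted p = 0.00158) and −1.09 (SE 0.23, limma adjusted p = 0.00119).

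Dnajc3 was the only member that stayed lower under both other scalings in both cohorts, and in Sham offspring it was no longer called once the trend with gene length and GC content was removed (−0.33, limma adjusted p = 0.109). Dnajb9, a J-domain co-chaperone, and Hyou1, the nucleotide exchange factor of BiP, had log2 fold changes of −0.10 and −0.25 in Sham offspring and −0.58 and −0.90 in PM offspring, and none of these passed the test.

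**Figure D2:**
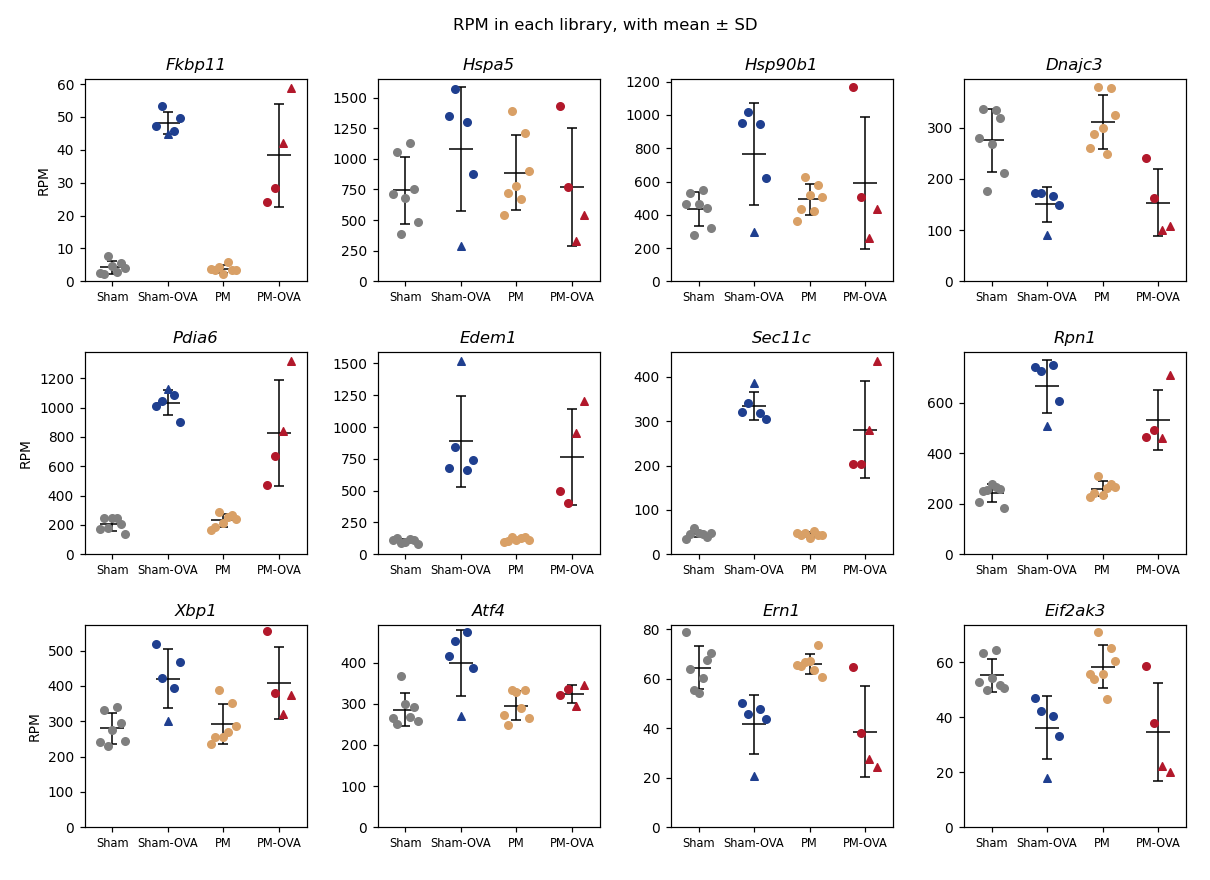
RPM (vertical axes, from 0) of 11 members and Xbp1 in each library of the 4 groups (horizontal axes), with the mean and SD as a black line and bars and the 3 shallowest libraries as triangles. The OVA libraries of Fkbp11, Pdia6, Edem1, Sec11c and Rpn1 lie above all saline libraries, those of Hspa5 and Hsp90b1 overlap them, and those of Ern1 and Eif2ak3 lie below them in Sham offspring.

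Of the 6 disulfide isomerases, which form and correct disulfide bonds, 5 rose and none fell in Sham-OVA, and 4 rose and none fell in PM-OVA. Pdia6 (ENSMUSG00000020571.12, chr12:17266545-17284770, plus strand) had 138, 208 and 249 RPM as the lowest, median and highest level in Sham and 1010.1, 1043, 1124, 1089 and 902 RPM in Sham-OVA. In PM it had 168, 238 and 288 RPM, and in PM-OVA 475, 669, 837 and 1319 RPM. The groups did not overlap, and the rise was 5.1-fold (log2 2.35, SE 0.17, limma adjusted p = 4.77e-08) and 3.39-fold (log2 1.76, SE 0.24, limma adjusted p = 0.00013).

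Pdia4 rose by 1.93 and 1.26 on the log2 scale, Txndc11 by 1.36 and 1.07, and Txndc5 by 1.07 and 0.75. P4hb, the member with the highest level per kb in Sham, rose by 0.57 in Sham offspring and had a log2 fold change of 0.32 (limma adjusted p = 0.0549) in PM offspring. Pdia3 had 296, 429.6 and 474 RPM in Sham and 784, 646, 169.6, 768 and 536 RPM in Sham-OVA, where 4 libraries were above all Sham libraries and the shallow replicate 3 was below them. The PM libraries had 359.8, 472 and 527 RPM and the PM-OVA libraries 599, 526, 218 and 343 RPM, and neither difference passed the test (log2 0.35 and −0.19).

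The 2 lectin chaperones, which hold glycoproteins during folding, differed from each other. Calr, soluble calreticulin, had 163, 305 and 376 RPM in Sham as the lowest, median and highest level, and 502, 499, 589, 469 and 406 RPM in Sham-OVA. Canx, its membrane-bound relative calnexin, had 310.2, 406 and 435 RPM in Sham and 407, 305, 94.1, 369 and 319 RPM in Sham-OVA. Calr rose (log2 0.81, SE 0.21, limma adjusted p = 0.00352) while the difference of Canx did not pass the test (log2 −0.50, SE 0.29, limma adjusted p = 0.139).

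In PM offspring Calr rose by 0.44 on the log2 scale, from 333 ± 67.7 RPM (SD, n = 7) to 444 ± 48.3 RPM (SD, n = 4), and Canx fell by 0.82, from 418 ± 37.2 to 258 ± 122 RPM. Both genes carry the ER stress response element shown above. The call of Canx was lost with TMM scaling, and the call of Calr was lost when any of 5 single libraries was left out.

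Translocation and signal peptide removal had 10 members, of which 6 rose and 1 fell in Sham-OVA, and 5 rose and 1 fell in PM-OVA. Sec11c (ENSMUSG00000024516.13), a catalytic subunit of the signal peptidase, had 35.5, 45.8 and 58.5 RPM as the lowest, median and highest level in Sham and 322, 341, 387, 319.7 and 306 RPM in Sham-OVA. In PM it had 36, 42.9 and 52.4 RPM and in PM-OVA 204, 203, 280.3 and 436 RPM. The rise was 7.3-fold in Sham offspring (log2 2.87, SE 0.14, limma adjusted p = 1.66e-09), the smallest adjusted p among the members, and 5.96-fold in PM offspring (log2 2.58, SE 0.20, limma adjusted p = 2e-06).

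Spcs2, another subunit of the signal peptidase, rose by 1.60 and 1.12 on the log2 scale, and Sec61a1, the channel itself, by 0.67 and 0.54. The 4 subunits of the translocon-associated complex moved in different directions. Ssr2 and Ssr4 rose in both cohorts, by 1.72 and 1.505 on the log2 scale in Sham offspring and by 1.30 and 1.30 in PM offspring, Ssr1 rose in Sham offspring (0.32, limma adjusted p = 0.025, lost without any one of Sham-OVA replicates 1, 2 and 4) and was at 0.02 in PM offspring without passing the test, and Ssr3 fell in both. The exons of Ssr2 overlap a processed pseudogene on the opposite strand by 239 bases.

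Ssr3 (ENSMUSG00000027828.12, chr3:65379655-65392623, minus strand) had 284, 326 and 368 RPM as the lowest, median and highest level in Sham and 312, 250.1, 74.3, 251 and 210.2 RPM in Sham-OVA, and 336, 359 and 400.2 RPM in PM and 397, 237, 82 and 99.3 RPM in PM-OVA. The 3 lowest of these OVA libraries were the 3 shallowest, and 1 library in each OVA group lay within the saline range. The fall of 0.71 on the log2 scale (SE 0.27, limma adjusted p = 0.0316) in Sham offspring was lost with both other scalings, and the fall in PM offspring was 1.11 (SE 0.34, limma adjusted p = 0.0119). The call in PM offspring was lost with DESeq2, edgeR and a replicate block. It was also lost without the 3 shallowest libraries and without PM-OVA replicate 3. Sec61b was listed at 0.404 RPM on average in Sham and lower in the other groups, and Spcs1 between 5.22 and 5.8 RPM, and neither passed a test.

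The oligosaccharyltransferase, which transfers the sugar chain to the nascent protein, had 5 members, of which 3 rose in both cohorts and none fell. Rpn1 (ENSMUSG00000030062.7, chr6:88084482-88105304, plus strand) had 183, 253 and 278 RPM as the lowest, median and highest level in Sham and 739, 723, 507, 749 and 607 RPM in Sham-OVA. In PM it had 226, 261 and 309 RPM and in PM-OVA 466, 489.9, 459 and 710.3 RPM. It rose without overlap by 1.45 (SE 0.15, limma adjusted p = 1.65e-06) and 1.01 (SE 0.15, limma adjusted p = 0.000182) on the log2 scale.

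Its partner Rpn2 rose by 0.90 and 0.49, and Ostc, a subunit that docks the complex to the channel, by 1.04 and 0.49. In PM offspring the call of Ostc was lost without PM-OVA replicate 1 or 2 and with array weights. Ddost had log2 fold changes of 0.49 (limma adjusted p = 0.0839) and 0.00 (limma adjusted p = 0.989), and in PM offspring it was called higher with TMM scaling at 0.46. Stt3a, a catalytic subunit, had 88, 106 and 114 RPM in Sham and 150.4, 125, 48.5, 127 and 117 RPM in Sham-OVA. It had 106, 115 and 118 RPM in PM and 140.4, 107, 63.6 and 58.6 RPM in PM-OVA. Of the Sham-OVA libraries 4 lay above and 1 below all Sham libraries, the PM-OVA libraries lay on both sides of the PM range, and its log2 fold changes were 0.06 and −0.38, neither of which passed the test.

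ERAD, which recognises and removes misfolded chains, had 8 members, of which 6 rose and 1 fell in both cohorts. Edem1 (ENSMUSG00000030104.9, chr6:108828641-108859356, plus strand), a lectin that marks misfolded glycoproteins, had 83.5, 108 and 128 RPM as the lowest, median and highest level in Sham and 677, 843, 1517, 665 and 743 RPM in Sham-OVA. The PM libraries had 99, 111 and 138 RPM, and the PM-OVA libraries 495, 401, 955 and 1203 RPM. The highest value of each OVA group came from one of the shallow libraries, and all OVA libraries were above all saline libraries (log2 3.02, SE 0.20, limma adjusted p = 2.89e-08, and log2 2.58, SE 0.26, limma adjusted p = 1.71e-05).

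Edem2 rose by 2.64 and 2.505 on the log2 scale, and Syvn1, the ubiquitin ligase at the centre of ERAD, by 1.80 and 1.44. Herpud1, an organiser of the ligase complex, rose by 1.02 and 1.15. The export factors Derl1 and Derl2 rose by 0.84 and 0.56 in Sham offspring and 0.42 and 0.45 in PM offspring. In PM offspring the call of Derl1 was lost without any one of PM replicates 2, 4 and 7 and PM-OVA replicate 2. That of Derl2 was lost without any one of PM replicates 1, 2, 4 and 7 and PM-OVA replicates 3 and 4. Sel1l, the partner of Syvn1, had 214 ± 16.8 RPM (SD, n = 7) in Sham and 256 ± 52.1 RPM (SD, n = 5) in Sham-OVA, which did not pass the test (log2 0.24).

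Edem3 (ENSMUSG00000043019.12, chr1:151755371-151822051, plus strand), the third relative of Edem1, fell. It had 72.4, 103 and 107 RPM as the lowest, median and highest level in Sham and 63, 61.2, 47.2, 64.4 and 69.3 RPM in Sham-OVA, and 92.5, 102 and 120.0 RPM in PM and 83.5, 55.1, 59.3 and 56.7 RPM in PM-OVA. The groups did not overlap in either cohort (log2 −0.64, SE 0.14, limma adjusted p = 0.00111, and log2 −0.71, SE 0.14, limma adjusted p = 0.000907). In Sham offspring the call was lost under both other scalings, and with the trend in gene length and GC content removed the value was 0.03. In PM offspring the call was lost with TMM scaling, DESeq2 and edgeR, and with that trend removed.

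Traffic between the ER and the Golgi had 6 members, of which 2 rose and 1 fell in Sham-OVA, and 2 rose and 2 fell in PM-OVA. Kdelr3 (ENSMUSG00000010830.8, chr15:79516411-79527739, plus strand), a receptor that returns escaped chaperones to the ER, had 7.25, 9.12 and 9.69 RPM as the lowest, median and highest level in Sham and 19.5, 24.4, 26.4, 24.3 and 20.7 RPM in Sham-OVA. In PM it had 7.51, 9.59 and 20.1 RPM, the last in replicate 5, and in PM-OVA 16.1, 23, 23 and 17.2 RPM. It rose by 1.38 (SE 0.15, limma adjusted p = 2.72e-06) and 0.87 (SE 0.24, limma adjusted p = 0.0064), without overlap in Sham offspring and with overlap in PM offspring.

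Sec23b, a COPII coat protein, rose by 1.07 and 0.59 on the log2 scale, whereas its coat partner Sec24d had log2 fold changes of −0.51 and −0.90 (limma adjusted p = 0.159 and 0.0524). Kdelr2 had values of 0.30 and 0.10 and did not pass the test. Lman1 and Mcfd2, which form a cargo receptor for coagulation factors and other glycoproteins, were lower on average after OVA. Mcfd2 had 105, 128 and 143 RPM in Sham and 112, 87.9, 32, 96.5 and 100.4 RPM in Sham-OVA.

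Mcfd2 had 119.8, 130.2 and 151 RPM in PM and 125, 90, 43.3 and 53.0 RPM in PM-OVA, with the lowest values in the shallow libraries and 1 library of each OVA group within the saline range. Mcfd2 fell in both cohorts (log2 −0.68, SE 0.25, limma adjusted p = 0.0256, and log2 −0.87, SE 0.23, limma adjusted p = 0.00606), and Lman1 fell in PM offspring (log2 −0.79) while its value of −0.44 in Sham offspring did not pass the test. The calls of Mcfd2 in Sham offspring and of Lman1 in PM offspring were lost under both other scalings.

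**Figure D3:**
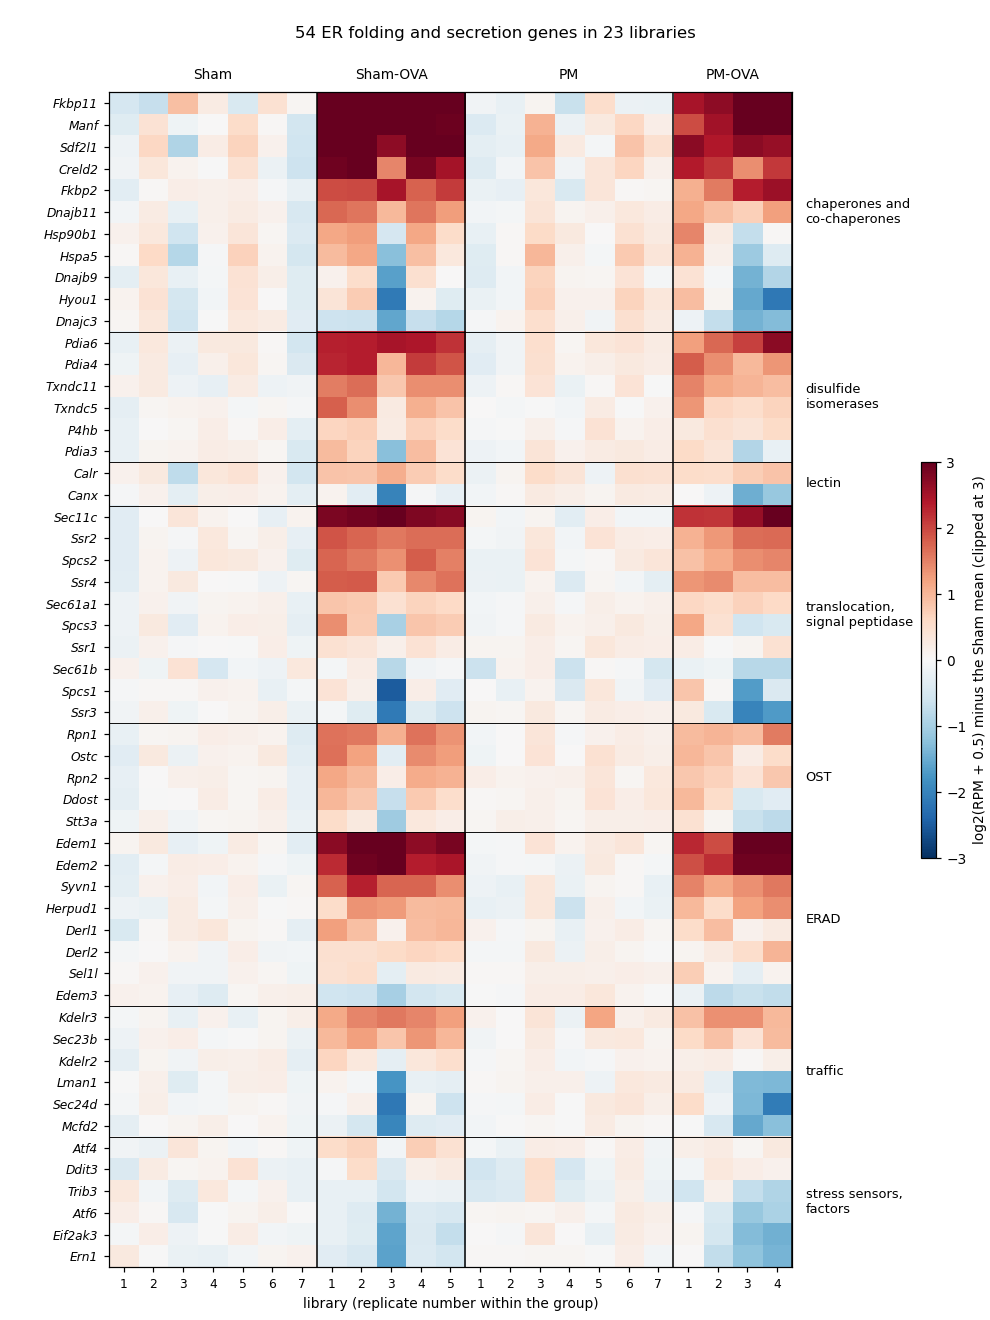
Level of the 54 members (rows, grouped by role) in the 23 libraries (columns, by group and replicate) as log2(RPM + 0.5) minus the mean of the 7 Sham libraries, with red for higher and blue for lower and the colours clipped at 3. The upper rows of most role groups are red in all OVA libraries, and the blue cells are deepest in the 3 shallowest libraries.

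Of the 6 sensors and factors of the unfolded protein response, 1 rose and 3 fell in Sham-OVA, and none rose and 3 fell in PM-OVA, which is near the share of all genes that fell (47.5% and 45.2%). Ern1 (ENSMUSG00000020715.9, chr11:106394650-106487852, minus strand), the sensor that splices Xbp1 mRNA, had 54.3, 63.8 and 78.7 RPM as the lowest, median and highest level in Sham and 50.1, 45.9, 20.8, 47.6 and 43.7 RPM in Sham-OVA. In PM it had 60.6, 65.5 and 73.4 RPM and in PM-OVA 64.7, 38.2, 27.4 and 24.1 RPM. The Sham-OVA libraries lay below all Sham libraries, and 1 PM-OVA library was within the PM range.

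Eif2ak3 (ENSMUSG00000031668.14, chr6:70844515-70905245, plus strand), the PERK kinase, had 49.8, 52.9 and 64.3 RPM in Sham and 47, 42.4, 18, 40.5 and 33.2 RPM in Sham-OVA. It had 46.7, 55.8 and 70.8 RPM in PM and 58.5, 38, 22.2 and 20 RPM in PM-OVA. Atf6 (ENSMUSG00000026663.6, chr1:170704674-170867771, minus strand), the sensor that is cut in the Golgi to release a transcription factor, had 84.6, 121 and 135 RPM in Sham and 100.3, 89.4, 43.5, 88.8 and 83.6 RPM in Sham-OVA. Both genes had 1 PM-OVA library within the PM range, and Atf6 overlapped in Sham offspring as well.

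In PM, Atf6 had 112, 124 and 141 RPM, and in PM-OVA 115, 85.6, 53.6 and 60.8 RPM. The log2 fold changes in Sham offspring were −0.68 for Ern1 (SE 0.20, limma adjusted p = 0.00788), −0.67 for Eif2ak3 (SE 0.20, limma adjusted p = 0.00913) and −0.59 for Atf6 (SE 0.19, limma adjusted p = 0.0144), against the median of −0.48 over all genes. All 3 lost the call with median-of-ratios scaling (−0.31, −0.30 and −0.22) and with TMM scaling. With the trend in gene length and GC content removed, Atf6 was at 0.09 and Ern1 at −0.16, neither called, and Eif2ak3 at −0.47 was still called (limma adjusted p = 0.0482).

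In PM offspring the log2 fold changes were −0.87 for Ern1, −0.87 for Eif2ak3 and −0.74 for Atf6, and Ern1 and Atf6 were still called under both other scalings while that of Eif2ak3 was lost with TMM (−0.41, limma adjusted p = 0.0543). With the length and GC trend removed the calls of Atf6 (−0.03) and Ern1 (−0.35) were lost in PM offspring, and without the 3 shallowest libraries those of Ern1 (−0.40) and Eif2ak3 (−0.29). The median exon length was 6026 bases for the 7 members that fell in Sham offspring and 3463 bases for the 31 that rose, and over all genes it was 5143.5 bases for those that fell and 2883 bases for those that rose. The part of gene length in these falls was not tested further, and depth and group cannot be told apart, because every OVA library was shallower than every saline library.

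The transcription factors of the response gave small differences. Atf4 (ENSMUSG00000042406.8, chr15:80255184-80257541, plus strand), the factor translated when PERK is active, had 252, 268 and 368 RPM as the lowest, median and highest level in Sham and 416, 451, 270.0, 474 and 387 RPM in Sham-OVA. The PM libraries had 248, 290.0 and 333 RPM and the PM-OVA libraries 322, 335, 294 and 345 RPM. It rose by 0.47 (SE 0.16, limma adjusted p = 0.0164) on the log2 scale in Sham offspring, with 4 of 5 OVA libraries above all Sham libraries, and had a log2 fold change of 0.14 (limma adjusted p = 0.357) in PM offspring. With the length and GC trend removed its sign turned in both cohorts (−0.05, not called, and −0.40, called lower), whereas in PM offspring it was called higher with median-of-ratios scaling (0.50) and TMM (0.60). The call in Sham offspring was also lost without Sham-OVA replicate 4.

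Ddit3, which encodes CHOP and is a marker of prolonged ER stress, had 21, 30 and 38.8 RPM in Sham and 28.1, 42.5, 21.1, 32.3 and 34.8 RPM in Sham-OVA. It had 19.0, 26.2 and 41.6 RPM in PM and 27.1, 36.1, 32.8 and 31.2 RPM in PM-OVA, so that the groups overlapped in both cohorts. The log2 fold changes were 0.11 (SE 0.19, 95% interval −0.30 to 0.52) and 0.27 (SE 0.21, 95% interval −0.18 to 0.72) and did not pass the test, although Ddit3 was called higher with both other scalings, at 0.47 and 0.56 in Sham offspring and 0.63 and 0.73 in PM offspring. Trib3, a target of ATF4 and CHOP, had values of −0.27 and −0.38 and did not pass the test in either cohort.

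Xbp1 is not a member, but its protein drives many of them. It had 229, 276 and 341 RPM as the lowest, median and highest level in Sham and 519, 422, 299.8, 395 and 469 RPM in Sham-OVA, and 236, 271 and 389 RPM in PM and 556, 381, 319.7 and 375 RPM in PM-OVA. It rose in both cohorts (log2 0.58, SE 0.16, limma adjusted p = 0.00521, and log2 0.47, SE 0.18, limma adjusted p = 0.0366), with 4 of 5 Sham-OVA libraries above all Sham libraries. The call was lost in both cohorts with the length and GC trend removed (0.19 and 0.08), and in PM offspring without any one of 8 libraries. The spliced form of Xbp1 mRNA cannot be read from 1 value per gene.

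The members with each promoter element were listed by direction, and a link between element and direction was not tested. Of the 8 members with the ER stress response element, 5 rose and 1 fell in Sham-OVA, and 4 rose and 2 fell in PM-OVA, with log2 fold changes from −0.87 to 2.63 and from −1.09 to 1.80. Both members with the second form, Dnajb11 and Herpud1, rose in both cohorts. Of the 4 members with the unfolded protein response element, 3 rose in both cohorts, Kdelr3, Txndc11 and Txndc5, and Sec24d did not pass the test. Of the 3 members with the C/EBP-ATF response element, Herpud1 and Txndc5 rose in both cohorts and Trib3 did not pass the test.

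Further genes of the same pathways were taken as 6 lists with 91 genes that are not members, of which 90 were tested. Genes are named below by the largest rise and the largest fall of each list in Sham offspring, with the value in PM offspring second. In Sham-OVA 33 of the 90 rose and 25 fell (median log2 0.06), and in PM-OVA 28 rose and 33 fell (median −0.12). Glycosylation had 8 higher and 2 lower of 17 in Sham offspring and 7 higher and 3 lower in PM offspring, from Prkcsh, the glucosidase subunit that trims new sugar chains (1.92 and 1.67), to Tusc3 (−1.45 and −1.17). Folding had 6 higher and 3 lower of 14, and 6 higher and 5 lower, from Erp29, an ER folding factor (2.10 and 1.66), to Selenof (−1.30 and −1.68).

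ERAD had 5 higher and 3 lower of 12, and 4 higher and 4 lower. Its largest rise was that of Derl3, a relative of Derl1 and Derl2, from 3.17 RPM in Sham to 149.8 RPM in Sham-OVA and from 2.2 RPM in PM to 113 RPM in PM-OVA (log2 5.34 and 5.40), and its largest fall that of Fam8a1 (−1.67 and −1.70). Translocation had 3 higher and 5 lower of 11 tested in both cohorts, from Srp9, part of the signal recognition particle (1.48 and 1.01), to Srpr, which encodes its receptor (−3.17 and −2.77). Traffic had 7 higher and 4 lower of 21, and 4 higher and 8 lower, from Cope, a COPI coat protein (1.12 and 1.14), to Tmed10, a cargo receptor (−1.21 and −1.28).

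Signalling of the unfolded protein response had 4 higher and 8 lower of 15 in both cohorts (median −0.49 and −0.55), from Atf6b, the relative of Atf6 (1.17 and 0.94), to Mbtps2, a protease that cuts ATF6 (−1.58 and −1.69). Chaperones outside the ER were set beside them. The 22 cytosolic chaperones had 8 higher and 4 lower in Sham offspring and 6 higher and 6 lower in PM offspring (medians −0.04 and −0.30), from Cct7 (1.78 and 1.60) to Dnaja1 (−1.41 and −1.83). The 9 mitochondrial chaperones had 2 higher and 4 lower, and 2 higher and 5 lower (medians −0.63 and −0.47), from Hspa9 (1.91 and 1.71) to Clpx (−1.33 and −1.22).

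Markers of plasma cells, goblet cells, interstitial macrophages and eosinophils were mostly higher after OVA, whereas those of club cells, fibroblasts and endothelium were not. In bulk lung, more cells of a type and more RNA per cell cannot be told apart. The 7 plasma cell markers had 5 higher and 1 lower in both cohorts, and their summed level went from 150.4 to 289.8 RPM across the Sham libraries to 7039 to 12280 RPM across Sham-OVA, and from 147 to 231 RPM in PM to 6436 to 10723 RPM in PM-OVA. Among them Mzb1, itself an ER protein of antibody-secreting cells, went from 6.95 to 1942 RPM in Sham offspring and from 5.57 to 1401 RPM in PM offspring, while Sdc1 was lower (−1.66 and −1.42). Jchain, the joining chain of secreted antibodies, lay between 30.9 and 145 RPM in Sham and between 3788 and 9793 RPM in Sham-OVA.

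All 7 goblet cell markers were higher in both cohorts, and their sum went from 8.74 to 36.6 RPM in Sham to 509 to 2158 RPM in Sham-OVA. In PM offspring it went from 9.87 to 233 RPM in PM to 1301.5 to 5345 RPM in PM-OVA. The 233 RPM came from PM replicate 1, with Clca1 at 178 RPM, and every other PM library was at 28.3 RPM or less. Muc5ac, the gel-forming mucin, lay between 0.151 and 0.755 RPM in Sham and between 17.65 and 77.4 RPM in Sham-OVA, and Agr2, an ER disulfide isomerase needed for mucin, was at 0 in 1 Sham library and at 0.635 RPM or less in the others, and lay between 3.06 and 20.3 RPM in Sham-OVA. The largest rise on that list was that of Clca1 (log2 9.86 and 10.54) and the smallest that of Spdef (2.15 and 2.95), and Clca1 and Tff2 were also listed at 0 in some saline libraries, so that their fitted values are no bound.

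Of the 5 interstitial macrophage markers 4 were higher in both cohorts (C1qa by 3.91 and 3.36, with Cx3cr1 not called at 0.45 and −0.01), and their sum went from 140.1 to 269 RPM in Sham to 1589 to 2419 RPM in Sham-OVA and from 218 to 388 RPM in PM to 1360.4 to 2146 RPM in PM-OVA. The 5 eosinophil markers had 4 higher and 1 lower in both cohorts (Prg2 by 3.94 and 3.68, Siglecf lower by −1.01 and −1.33), with Epx at 0 in every saline library and Prg2 in 5 of them, so that their fitted values are no bound. The 8 alveolar type 2 markers had 3 higher and 2 lower (Sftpc by 1.19 and 1.14, Lamp3 lower by −3.34 and −4.25). Club cell, fibroblast and endothelial markers had none higher, with 2 of 3, 1 of 5 and 3 of 4 lower in both cohorts, led by Cyp2f2 (−2.34 and −1.33), Pdgfra (−1.44 and −1.58) and Tek (−2.15 and −2.03). Scgb1a1 did not pass the test (−0.96 and −0.03), Col1a2 was at 0.36 and −0.09, and Pecam1 was at −0.03 and 0.06. The part of any of these cells in the levels of the 54 members was not tested.

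**Figure D4:**
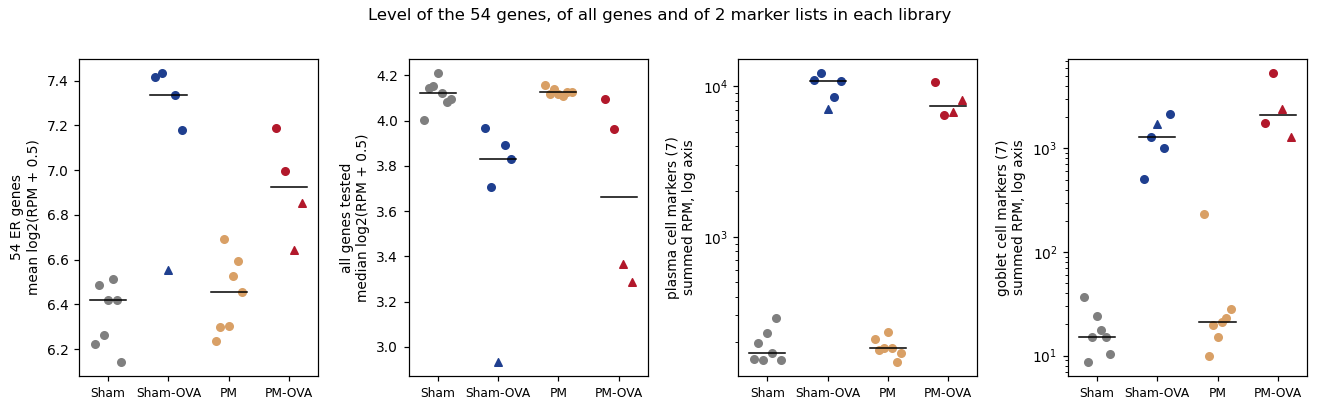
Mean log2(RPM + 0.5) of the 54 members, median log2(RPM + 0.5) of all genes tested, and summed RPM of 7 plasma cell and 7 goblet cell markers (log axes) in each library of the 4 groups, with the group median as a line and the 3 shallowest libraries as triangles. The members' mean lies between 6.14 and 6.69 in the saline libraries and between 6.55 and 7.43 in the OVA libraries, whereas the median of all genes is lower in every OVA library except PM-OVA replicate 1 than in every saline library.

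Within a group, libraries differed in a way that ran through many members. The mean of the members on the log2 scale was 6.35 ± 0.14 (SD, n = 7) in Sham, 7.18 ± 0.37 (SD, n = 5) in Sham-OVA, 6.44 ± 0.17 (SD, n = 7) in PM and 6.92 ± 0.23 (SD, n = 4) in PM-OVA. Less the median of all genes in the same library, it lay between 2.05 and 2.55 in the saline libraries and between 3.03 and 3.73 in the OVA libraries, without overlap. Sham-OVA replicate 3 had the lowest level of its group for 43 of the 54 members, and for 64.4% of all genes, and yet it had the highest level of its group for 8 members. Those 8 were Pdia6, Calr, Manf, Edem1, Edem2, Sec11c, Fkbp2 and Kdelr3.

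Among the saline libraries, PM replicate 3 was highest of its group for 27 members (13.5% of all genes) and PM replicate 1 lowest for 25 (9.48% of all genes). Hspa5 was at 1389 RPM in the former and 542 RPM in the latter, and Hsp90b1 at 628 and 363 RPM.

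The maternal exposure was compared first without challenge. In PM against Sham no member passed the test (0% of all genes were called), by limma, DESeq2 or edgeR. An unadjusted p under 0.05 was seen for 3 members with limma, 2 with DESeq2 and 1 with edgeR. Over all genes it was seen for 731 with limma (4.35%), 843 with DESeq2 and 783 with edgeR. The log2 differences were above 0 for 43 of the 54 members (55.1% of all genes), with a median of 0.11 (0.02 over all genes). The smallest unadjusted p among the members was that of Ssr1, at 0.17 on the log2 scale, and with array weights the median of the members was 0.02.

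In PM-OVA against Sham-OVA no member passed the test either, by limma, DESeq2 or edgeR. Over all genes 0% were called by limma, 1 gene by DESeq2 and 0 by edgeR. An unadjusted p under 0.05 was seen for 2 members by limma, 6 by DESeq2 and 5 by edgeR. Over all genes it was seen for 313 by limma (1.86%), 583 by DESeq2 and 471 by edgeR. The log2 differences were below 0 for 50 of the 54 members (47.7% of all genes), with a median of −0.28 (0.01 over all genes). The smallest unadjusted p was that of Sdf2l1, at −0.51 on the log2 scale. The members are not independent of each other, and the counts of signs carry no test.

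The last comparison asked whether the response to OVA differed with maternal exposure, as the interaction of both factors over all 23 libraries. It shares the libraries of the comparisons above. No member passed the test, by limma, DESeq2 or edgeR. Over all genes 0% were called by limma, 2 genes by DESeq2 and 0 by edgeR. An unadjusted limma p under 0.05 was seen for 7 members, against 5.08% of all genes. These were Sec23b, Dnajb11, Pdia4, Rpn1, Sdf2l1, Creld2 and Spcs2, all with a smaller rise in PM offspring. When 1 library was left out the count lay between 2 and 26, with 3 without Sham replicate 1 and 26 without Sham-OVA replicate 3. The count over all genes then lay between 641 and 1965. DESeq2 and edgeR had 11 and 10 members at that unadjusted p. Over all genes they had 1595 and 1388 at that p, against 854 with limma. DESeq2 gave an adjusted p for 53 of the 54 members. The largest differences among the 7 members named were −0.83 for Creld2 (SE 0.39) and −0.82 for Sdf2l1 (SE 0.39).

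The interaction was below 0 for 51 of the 54 members (50.8% of all genes), with a median of −0.35 (−0.01 over all genes). The exceptions were Herpud1 (0.13), Ddit3 (0.16) and Spcs1 (0.20). The 95% intervals had a median half-width of 0.60 on the log2 scale, and those of 22 members held −1, so that a difference of 1 on the log2 scale was not excluded for these genes. For Hspa5 the interaction was −0.76 with a 95% interval from −1.92 to 0.39.

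The interaction depended on the weight given to single libraries. With array weights 27 members were called lower, where 23.6% of all genes were, and the median was −0.57 for the members and −0.32 for all genes. Without the 3 shallowest libraries 4 members were called lower, Pdia6, Edem1, Ssr2 and Rpn1, where 0.649% of all genes were, and the median was −0.35 (0.14 for all genes), with only 2 PM-OVA libraries in that fit. When any single library was left out no member was called, and the median lay between −0.46 and −0.28.

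**Figure D5:**
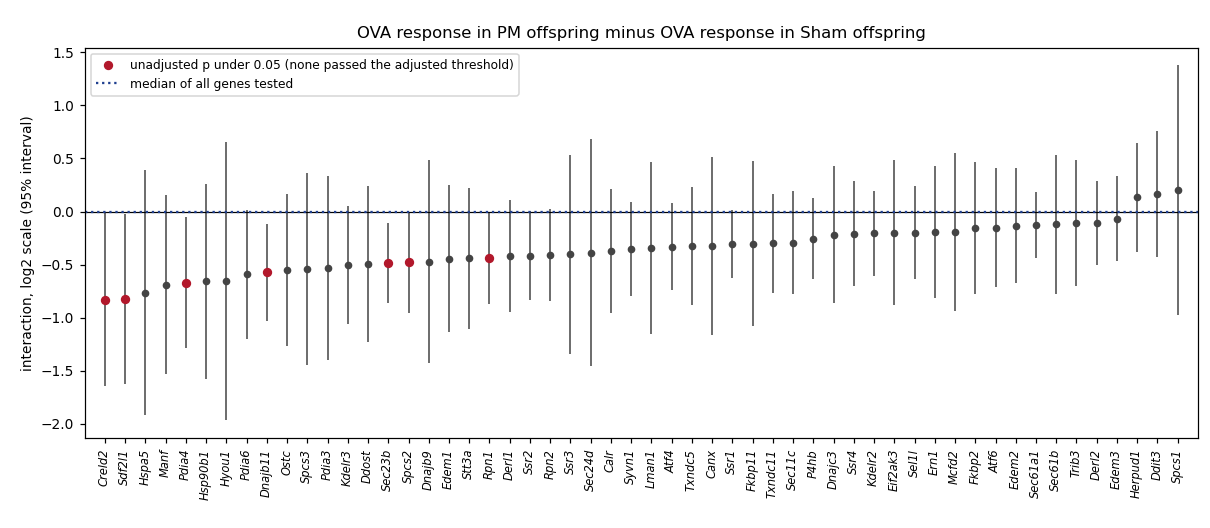
Interaction of maternal exposure and OVA challenge on the log2 scale (vertical axis, with 95% intervals) for each of the 54 members (horizontal axis, sorted), where values below 0 mean a smaller rise or a larger fall in PM offspring. Red points had an unadjusted p under 0.05, and none passed the adjusted threshold. The dotted line is the median of all genes (−0.01), and 51 points lie below 0.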

How the data were processed

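Polyadenylated RNA of lung was sequenced as single-end reads from a stranded kit. Trimmomatic, Bowtie2 (against GRCm38, with no splitting of reads over introns), SAMtools and SeqMonk were the tools of the authors, and whether the counting used strand is not given in the sources used here. The values are deposited as RPM (reads scaled to the library total), although the table is named RPKM: at least 99.99% of the values were whole multiples of 1 read within 0.01 reads. From these, log2(RPM + 0.5) was tested per gene with limma 3.58.1 (R 4.3.3) with a variance trend, between 2 groups or, for the interaction, over all 4, with Benjamini-Hochberg adjustment over all 16795 genes tested. Count models on reads recovered from the values (edgeR 4.0.16, DESeq2 1.42.0), other scalings and pseudocounts were alternatives. So were array weights, a replicate block and single libraries left out. The tests were also run on simulated data with 200 genes changed by 2 on the log2 scale, and each tool recovered all 200. The simulated data held no shift over most genes like that after OVA, so they cannot tell how the tests behave under it. Removing a trend in gene length and GC content, leaving out the 3 shallowest libraries, and DESeq2 at the limits for DEGs were chosen after seeing the data. Values per library were given for the members of each role with the largest rise and fall in Sham-OVA against Sham and for the best known members. The members and lists were chosen with earlier results of these data known. Figures were drawn with matplotlib 3.10.9. Protein sequences were not used here.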

Additional observations from a re-analysis of the deposited data

Results flagged for a closer look

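Among the 54 members in 4 groups, 11 of 216 sets of libraries (5.09%) had 1 library far from the others of its group by Dixon's test, and chance gives about 1 in 20. In Sham-OVA replicate 3, a shallow library, Edem1 was at 1.52e+03 RPM (the others 665 to 843 RPM), Rpn2 at 188 RPM (324 to 369 RPM), Ern1 at 20.8 RPM (43.7 to 50.1 RPM) and Trib3 at 8.7 RPM (11 to 11.6 RPM). In PM-OVA replicate 1, Edem3 was at 83.5 RPM (55.1 to 59.3 RPM) and Txndc5 at 528 RPM (306 to 335 RPM), and in PM-OVA replicate 4 Rpn1 was at 710 RPM (459 to 490 RPM). In Sham replicate 3, Atf4 was at 368 RPM (252 to 298 RPM) and Atf6 at 84.6 RPM (117 to 135 RPM). In PM replicate 5, Mcfd2 was at 151 RPM (120 to 133 RPM) and Kdelr3 at 20.1 RPM (7.51 to 11.3 RPM).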

How the results depend on the processing

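In Sham offspring 27 of the 31 members that rose, and in PM offspring 21 of 27, were called higher in every setting. The others in PM offspring were Calr, Derl1, Derl2, Ostc, Rpn2 and Kdelr3. Of those that fell, 0 of 7 and 1 of 9 (Dnajc3) were called lower in every setting. How many of all genes kept their calls in every setting was not counted, so these counts have no background. At the limits the study set for DEGs, 10 members were higher and 0 lower in Sham offspring and 0 and 0 in PM offspring with limma, and 25 and 0, and 20 and 0, with DESeq2 on recovered reads. In Sham offspring 1 member was lower with median-of-ratios scaling, TMM, DESeq2 and edgeR (1 each), and 4 with the length and GC trend removed, and the members' median was 0.99, 1.08, 1.03 and 1.12 in the first 4. Over all genes 6407, 5906, 6392, 5669 and 7656 were lower in these settings, in the same order, against 7978 in the main fit. In PM offspring 5 were lower with TMM, 17 with array weights, 4 with the replicate block, 4 with edgeR and 3 without the 3 shallowest libraries, and the median was 0.73, 0.83, 0.78 and 0.77 with median-of-ratios scaling, TMM, DESeq2 and edgeR. Over all genes the lower counts were 5498 (TMM), 8513 (array weights), 5694 (replicate block), 5095 (edgeR) and 5258 (shallowest left out). In the main fit that count was 7589. The interaction called 27 members lower with array weights (23.6% of all genes) and 4 without the 3 shallowest libraries (0.649% of all genes). The cause was not tested.

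Leaving out 1 library gave 28 to 38 members higher, 6 to 7 lower and a median of 0.58 to 0.81 in Sham offspring. There were 38 higher without Sham-OVA replicate 3. In PM offspring it gave 24 to 27 higher, 7 to 13 lower and a median of 0.28 to 0.40 (13 without PM-OVA replicate 1). Over all genes it gave 3196 to 4221 higher and 7622 to 8149 lower in Sham offspring. In PM offspring these were 3100 to 3607 and 6485 to 8476. No member was called for PM against Sham (median 0.07 to 0.14) or PM-OVA against Sham-OVA (median −0.41 to −0.16). None was called for the interaction (median −0.46 to −0.28).

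With the length and GC trend removed, the sign turned for Edem3 (0.0256), Atf4 (−0.0454) and Atf6 (0.0943) in Sham offspring and for Stt3a (0.37) and Atf4 (−0.40) in PM offspring. Ddost in PM offspring turned to 0.46 with TMM, 0.43 with DESeq2, 0.42 with edgeR and 0.58 without the 3 shallowest libraries, Spcs3 to −0.50 with array weights, and the interaction of Spcs1 to −0.99 with array weights. Libraries of the same replicate number had correlations of deviations of −0.07 to 0.12 for Sham with Sham-OVA and −0.10 to 0.06 for PM with PM-OVA. They were −0.25 to 0.10 for Sham with PM. For Sham-OVA with PM-OVA they were 0.595, 0.22, 0.617 and −0.31, where 3 of 4 were above 0.1. Replicate 1 was the deepest library of both OVA groups, with 12185451 and 12355561 reads, and replicate 3 had 2298645 and 5922469 reads. The labels do not pair libraries by number, and what these libraries share was not tested. With the replicate block 29 members rose and 6 fell in Sham offspring (2908 and 7117 of all genes). In PM offspring 22 rose and 4 fell (2288 and 5694 of all genes), and none was called in PM-OVA against Sham-OVA. Depth limits the OVA groups most, with 2298645 reads in the shallowest library.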
